A study of Arabidopsis thaliana with 97 samples.

Results

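The comparison of ein2-5 with Col-0 leaf discs after 60 min in flg22 rests on 6 of the 96 libraries of the time course, 3 biological replicates of each genotype, chosen by their sample titles. Flg22 is the peptide of bacterial flagellin that the receptor kinase FLS2 recognises. Col-0 is the wild type, and ein2-5 is an ethylene-insensitive mutant in the Col-0 ecotype. Discs were cut from 5-week-old, short-day plants of both genotypes, infiltrated with water under vacuum, floated on water until the next day and then placed in 100 nM flg22 for 60 min. Water controls were taken only after 8 min, and the other flg22 times were 8, 15, 30, 45, 120 and 180 min. The mutants npr1-1 (blocked in salicylic acid signaling) and jar1-1 (blocked in the conjugation of jasmonate to isoleucine) went through the same course. Libraries were made with EXPRSS, a Tag-seq method that sequences 1 tag near the 3′ end of each transcript and keeps its strand, so levels compare between genes without a correction for length. Levels are given below as tags per 1000000 after TMM normalisation (TPM), for replicates 1, 2 and 3 in that order.

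Ethylene is perceived by receptors in the endoplasmic reticulum that keep the kinase CTR1 active. When ethylene binds, CTR1 stops phosphorylating EIN2, and EIN2 passes the signal to the nuclear factors EIN3 and EIL1, which are otherwise degraded through the F-box proteins EBF1 and EBF2. EIN3 binds the promoters of genes such as EBF2 and ERF1, and ERF factors in turn bind GCC boxes in the promoters of defence genes, including those of the plant defensins. Flg22 perception leads to ethylene production in leaves within a short time, and jasmonate signaling works with ethylene on the defensins and against it on wound response genes.

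The sequences upstream of 5 genes that were lower in ein2-5 are shown. EBF2 is a target of EIN3, and the others lie on the known route from EIN3 through ERF factors to the defensins. The sequences are the 250 bases before each annotated gene start in TAIR10.1 as given by RefSeq, printed on the strand of the gene. Capitals mark the EIN3 core (ATGTAT, or ATACAT on the other strand) in EBF2 and ERF1 and the GCC box (GCCGCC, or GGCGGC on the other strand) in ORA59, PDF1.2 and PDF1.2b. The same window of PDF1.3, a defensin gene of this route that was also lower, held neither motif and is not printed, so the 5 shown are those of 6 looked up that held one.
EBF2 (chr5:8797350-8797599, minus strand): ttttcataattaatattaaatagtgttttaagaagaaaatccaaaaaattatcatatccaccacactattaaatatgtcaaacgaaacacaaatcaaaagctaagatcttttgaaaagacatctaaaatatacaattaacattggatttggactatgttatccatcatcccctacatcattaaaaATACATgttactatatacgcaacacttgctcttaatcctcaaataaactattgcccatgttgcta
ERF1 (chr3:8295367-8295616, plus strand): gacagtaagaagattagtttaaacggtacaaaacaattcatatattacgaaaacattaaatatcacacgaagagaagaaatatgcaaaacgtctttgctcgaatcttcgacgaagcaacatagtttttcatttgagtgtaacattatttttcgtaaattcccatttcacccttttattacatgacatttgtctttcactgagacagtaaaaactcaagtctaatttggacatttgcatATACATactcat
ORA59 (chr1:1882657-1882906, plus strand): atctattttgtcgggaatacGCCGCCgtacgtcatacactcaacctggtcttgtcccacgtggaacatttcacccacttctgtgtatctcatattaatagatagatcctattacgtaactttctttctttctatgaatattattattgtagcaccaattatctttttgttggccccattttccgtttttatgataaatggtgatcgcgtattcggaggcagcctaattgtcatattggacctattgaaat
PDF1.2 (chr5:17907639-17907888, minus strand): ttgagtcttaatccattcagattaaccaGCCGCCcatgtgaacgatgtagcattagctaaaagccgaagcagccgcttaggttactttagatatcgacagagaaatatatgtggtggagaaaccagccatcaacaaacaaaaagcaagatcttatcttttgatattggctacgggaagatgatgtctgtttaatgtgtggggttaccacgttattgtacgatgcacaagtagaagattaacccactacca
PDF1.2b (chr2:11088873-11089122, plus strand): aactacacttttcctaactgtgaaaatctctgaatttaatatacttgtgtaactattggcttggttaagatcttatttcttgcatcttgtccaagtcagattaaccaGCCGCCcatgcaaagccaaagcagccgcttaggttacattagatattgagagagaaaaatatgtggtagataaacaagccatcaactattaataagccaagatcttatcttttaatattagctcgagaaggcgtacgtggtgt
The EIN3 core began 65 bases before the start of EBF2 and 12 bases before that of ERF1, and the GCC box 230, 222 and 143 bases before the starts of ORA59, PDF1.2 and PDF1.2b. Among 14372 genes tested that had a promoter in the annotation, 2.25% held a GCC box in this window and 22.4% an EIN3 core. Of the 162 genes called lower in ein2-5 with such a promoter, 9 (5.56%) held a GCC box and 46 (28.4%) an EIN3 core. Of the 270 genes called higher, 1 (0.37%) held a GCC box and 59 (21.9%) an EIN3 core. The G-box (CACGTG) was in 7.36% of all promoters, 10.5% of the lower and 8.89% of the higher genes, and the W box (TTGACC or TTGACT) in 29.7%, 37.7% and 36.7%. These shares are descriptions without a test, and a match is not a site in use.

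Totals were 1265554, 1373544 and 1468348 tags in the Col-0 libraries at 60 min and 1781878, 1453315 and 1328377 tags in the ein2-5 libraries. Each genotype and replicate number had its own sequencing lane, with the 8 libraries of its time course, and the ein2-5 lanes were run apart from the flow cell of Col-0, so genotype and lane cannot be told apart. Replicates correlated at Pearson 0.921 to 0.932 in ein2-5 and 0.944 to 0.947 in Col-0 (log10 scale, across genes), and differed by more than counting error in all pairs. Tags from plastid loci took 28.8%, 19.2% and 9.27% of the ein2-5 libraries and 6.998%, 17.0% and 23.03% of the Col-0 libraries, so the 2 ranges overlapped. Marker lists for leaf cell types had no called member, but 3 of the 7 mesophyll markers were called higher with no filter on low counts and 1 without replicate 1 (list median 1.355, and 0.46 without ein2-5 replicate 1). The summed level of 7 mesophyll markers was 15551, 8865 and 11975 TPM in ein2-5 and 11801, 9349 and 6720 TPM in Col-0, and that of 19 nuclear photosynthesis genes was 34390, 14898 and 18283 TPM against 19488, 13781 and 10431 TPM. The 8 epidermis markers (6 tested) summed to 64.9, 76.9 and 41.7 TPM in ein2-5 and 37.0, 33.5 and 22.6 TPM in Col-0, the 7 guard cell markers (3 tested) to 11.3, 13.4 and 11.9 TPM and 11.3, 7.73 and 7.28 TPM, and the 10 vasculature markers (5 tested) to 146, 154 and 116 TPM and 171, 93.6 and 148 TPM. The epidermis sums were higher in every ein2-5 library and the guard cell sums barely so, while the mesophyll and vasculature sums overlapped, and the part of these shares in the results below was not tested. Fewer cells of a type and less RNA per cell cannot be told apart in such discs.

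EIN2 itself (AT5G03280, chr5:787428-793404 in TAIR10.1) was covered by few tags, 3.77, 2.82 and 2.24 TPM in ein2-5 and 8.04, 3.44 and 3.23 TPM in Col-0. The groups overlapped, and the difference of -0.73 in log2 (SE 0.57) did not pass the test (adjusted p = 0.525). The position of the ein2-5 lesion is not given in the sources used here, and tags near the 3′ end can persist in a mutant transcript, so this level is no check of the label.

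Of 14569 sense genes tested, 433 (2.97%) differed between ein2-5 and Col-0 at 60 min at an adjusted p under 0.01, 270 higher (1.85%) and 163 lower (1.12%) in ein2-5. Among the gene lists, ethylene output genes, group IX ERF factors and the defensin branch had most of the lower calls, and genes of jasmonate and salicylic acid synthesis and response most of the higher calls. Some lists share members (ERF1, PR4 and ORA59 among the lower calls, LOX2 among the higher). A gene is counted in each list that holds it. The libraries of the 2 genotypes did not overlap for 428 of the 433, against 3426 (23.5%) of all genes tested. The median log2 difference over all genes tested was 0.12. Leaving out single libraries gave 222 to 323 calls, the lowest count without Col-0 replicate 2, and a model of the 6 libraries alone gave 199.

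**Figure D1:**
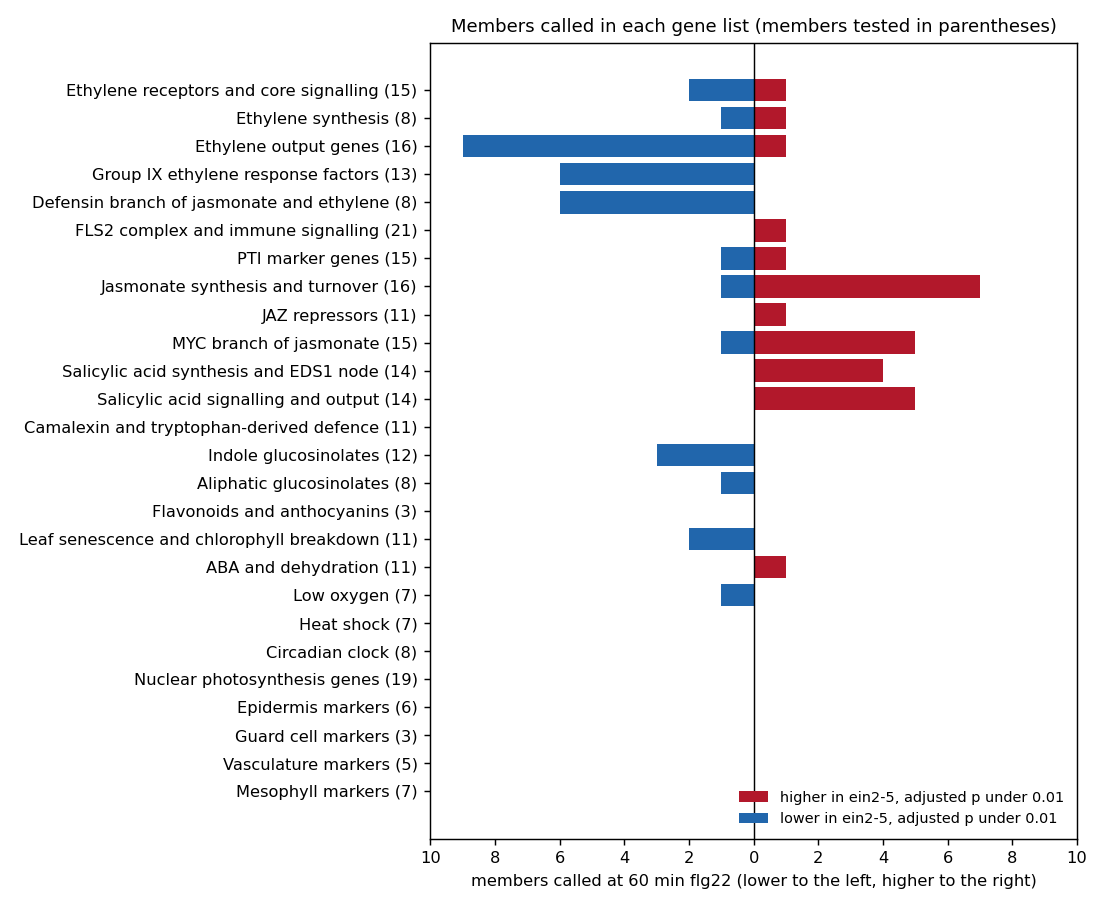
Members of each gene list called higher (right) or lower (left) in ein2-5 than in Col-0 at 60 min flg22, as numbers of genes on the horizontal axis, with the number of members tested in parentheses. Bars to the left are longest for ethylene output genes (9) and bars to the right for jasmonate synthesis (7). Genes in several lists are counted in each.

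Ethylene output genes were the list with the most calls. Of 16 tested, 9 were lower and 1 was higher in ein2-5, with a median log2 difference of -2.32 (-1.85 with genes without tags at their bound). Without single libraries 7 to 9 members were called lower. EBF2, the F-box protein induced by EIN3, had 21.1, 13.4 and 18.6 TPM in ein2-5 and 153, 131 and 175 TPM in Col-0. All 3 mutant libraries lay far below the wild type, and the log2 difference was -3.10 (SE 0.34, adjusted p = 1.82e-10). The ethylene receptor ERS1 had 3.02, 4.94 and 0.745 TPM in ein2-5 against 16.1, 23.2 and 21.8 TPM in Col-0 (log2 -2.76, SE 0.49, adjusted p = 5.57e-05). Its groups were also apart. PR4, a hevein-like pathogenesis-related protein, had 67.2, 29.6 and 44.7 TPM against 209.9, 314 and 280.5 TPM (log2 -2.51, SE 0.37, adjusted p = 8.00e-07). The F-box gene, the receptor and the defence protein were lower in all 3 mutant libraries.

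Organ size genes that ethylene induces were among the largest falls of all genes. ORS1 (AT2G41230, an ORGAN SIZE-like protein) had no tag in the 3 ein2-5 libraries and 78.0, 74.7 and 59.8 TPM in Col-0. Taking 3 tags over the group as the floor, its level was at least 96.4-fold lower in ein2-5 (adjusted p = 1.82e-10). ARL, the ARGOS-like protein, had 8.30, 8.47 and 8.95 TPM in ein2-5 and 313, 397 and 305 TPM in Col-0 (log2 -5.29, SE 0.40, adjusted p = 4.84e-17). The mutant libraries agreed closely for ARL, and no Col-0 library came near them. ARGOS had 3 tags in ein2-5 and 127 in Col-0 (1.51, 0 and 0.745 TPM against 31.4, 47.3 and 26.7 TPM), a ratio of 47.7 with a 95% counting interval from 16.3 to 231 (adjusted p = 2.06e-09).

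EBP (AT3G16770, also known as RAP2.3), an ERF factor of group VII, was the gene with the smallest adjusted p among those named here. It had 5.28, 1.41 and 2.24 TPM in ein2-5 and 344, 278 and 411 TPM in Col-0 (log2 -6.82, SE 0.47, adjusted p = 3.06e-19). RAP2.2, a second group VII factor, differed less, with 31.7, 22.6 and 35.8 TPM against 57.1, 62.7 and 52.5 TPM (log2 -0.94, SE 0.22, adjusted p = 0.00427). That call was lost in 4 of the 6 fits without a single library (adjusted p up to 0.0448, without ein2-5 replicate 2).

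Few members of the ethylene pathway rose in ein2-5. EBF1, the paralog of EBF2, had 159, 129 and 105 TPM in ein2-5 and 28.1, 39.5 and 33.1 TPM in Col-0 (log2 1.96, SE 0.29, adjusted p = 9.39e-07). The 2 F-box genes therefore moved in opposite directions, each without overlap. RAV1, an AP2/B3 factor, had 121, 100.2 and 117 TPM against 41.8, 41.2 and 25.1 TPM (log2 1.64, SE 0.34, adjusted p = 6.14e-04), a call lost without Col-0 replicate 3 (adjusted p = 0.0222). ACS8, an ACC synthase, had 30.2, 8.47 and 15.7 TPM against 3.22, 0.859 and 0.808 TPM (log2 3.38, SE 0.81, adjusted p = 0.00445), a call lost in 3 of 6 such fits (adjusted p up to 0.0528, without ein2-5 replicate 1). Of 15 receptors and core components tested, only ERS1, EBF2 and EBF1 were called, with a list median of -0.38.

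**Figure D2:**
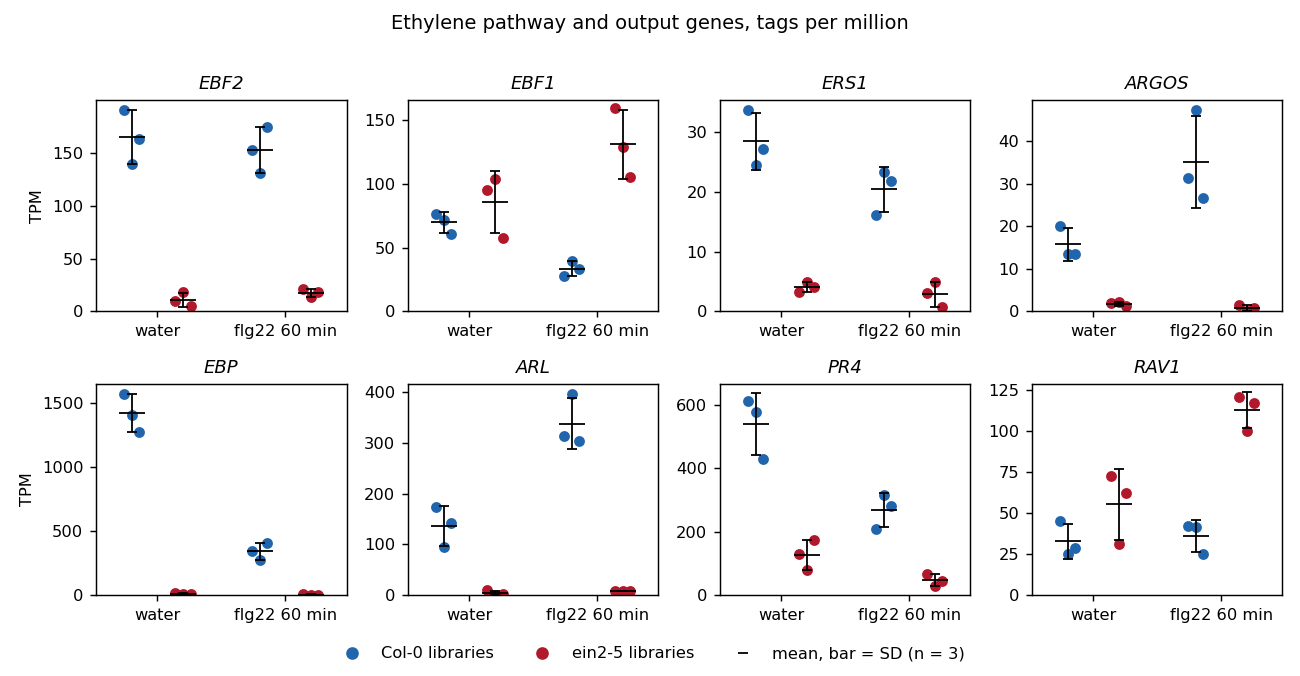
Levels of 8 ethylene genes in TPM (vertical axes, linear from 0) in water and after 60 min of flg22, with each library as a point (Col-0 blue, ein2-5 red) and the mean and SD of 3 libraries in black. At 60 min EBF2, ERS1, ARGOS, EBP, ARL and PR4 lie lower in every ein2-5 library than in any Col-0 library, and EBF1 and RAV1 lie higher.

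Group IX ERF factors, several of which activate GCC box genes, fell as well. Of 13 tested, 6 were lower and none was higher, with a median of -1.17, and 4 to 6 were lower without single libraries (4 without ein2-5 replicate 2 or 3). ERF-1 (ERF1A) had 85.3, 95.2 and 76.0 TPM in ein2-5 and 425, 324 and 301 TPM in Col-0 (log2 -2.03, SE 0.36, adjusted p = 6.81e-05). ERF2 had 15.1, 13.4 and 10.4 TPM against 121, 67.0 and 41.2 TPM (log2 -2.55, SE 0.45, adjusted p = 6.29e-05). Both groups were apart, although Col-0 replicates of ERF2 varied widely. ERF5 had 56.6, 26.1 and 27.6 TPM against 129, 136 and 151 TPM (log2 -1.91, SE 0.38, adjusted p = 4.79e-04), and TDR1 (ERF98) had 27.9, 17.64 and 11.9 TPM against 118, 109 and 70.3 TPM (log2 -2.37, SE 0.44, adjusted p = 1.59e-04). ERF-1, ERF2, ERF5 and TDR1 kept their calls without any single library. ERF1 had 1 tag in ein2-5 and 24 in Col-0 (0.755, 0 and 0 TPM against 7.24, 6.01 and 6.47 TPM), a ratio of 26.8 with a counting interval from 4.81 to 1059 (adjusted p = 0.00108). ORA59, the ERF factor that integrates jasmonate and ethylene, had no tag in ein2-5 and 6.43, 6.87 and 2.42 TPM in Col-0, at least 7.13-fold lower (adjusted p = 0.00286). These 2 low genes lost their calls in 2 and 5 of 6 fits without a single library, with adjusted p up to 0.0135 and 0.0181, both without ein2-5 replicate 2.

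Of the plant defensins tested, 3 that lie downstream of ORA59 and ERF1 had next to no tags in ein2-5, and PDF1.4 did not share this. PDF1.3 had 0 tags in the mutant and 35.4, 67.0 and 4.04 TPM in Col-0, at least 48.3-fold lower (adjusted p = 3.60e-06). PDF1.2b had 0 tags against 24.9, 23.2 and 4.85 TPM, at least 24.0-fold lower (adjusted p = 3.57e-05). Replicate 3 of Col-0 was the lowest for both, and still above the mutant. PDF1.2 had 1 tag against 98 (0.755, 0 and 0 TPM against 33.0, 36.1 and 12.1 TPM), a ratio of 110 with a counting interval from 19.8 to 4361 (adjusted p = 7.21e-04; 0.0104 without ein2-5 replicate 2). With PR4, ERF1 and ORA59, 6 of the 8 tested members of the defensin branch of jasmonate and ethylene signaling were lower and none was called higher (median -5.06, or -3.57 with genes without tags at their bound), with 3 lower without ein2-5 replicate 2 and 4 without ein2-5 replicate 3. PDF1.4, a defensin-like gene, stood apart from the others, with 911, 439 and 637 TPM in ein2-5 and 259, 253 and 305 TPM in Col-0. All 3 mutant libraries lay above the wild type, but the difference was not called (log2 1.28, SE 0.36, adjusted p = 0.0207), and it was called higher with scaling by total tags, with no filter on low counts, by limma-voom and with the replicate block. The defensin genes are nearly identical, and tags shared between them were split evenly by the authors, so the values of single copies are uncertain.

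Regulators of indole glucosinolates, tryptophan-derived defence compounds that flg22 induces, were lower in ein2-5. MYB51, an activator of the pathway, had 132, 69.1 and 52.9 TPM in ein2-5 and 467, 357 and 321 TPM in Col-0 (log2 -2.17, SE 0.30, adjusted p = 3.65e-07). MYB122, a related activator, had 3 tags in ein2-5 and 258 in Col-0 (0.755, 1.41 and 0 TPM against 74.8, 62.7 and 74.4 TPM), a ratio of 96.05 with a counting interval from 32.9 to 466 (adjusted p = 1.51e-09). Neither gene overlapped between the genotypes, and both kept their calls without any single library. IGMT1, a methyltransferase of the pathway, had 293, 177 and 177 TPM against 749, 768 and 835 TPM (log2 -1.86, SE 0.41, adjusted p = 0.00167), a call lost in 2 of 6 fits without a single library (adjusted p up to 0.0222, without ein2-5 replicate 3). Its near-identical copy IGMT2 had 1259, 885 and 575 TPM against 2763, 3106 and 3062 TPM, a log2 difference of -1.72 that just missed the threshold (adjusted p = 0.0109). In all, 3 of 12 tested members were lower and none was higher (median -1.27, with 2 lower without ein2-5 replicate 2 or 3), while none of 11 camalexin genes was called (median -0.95). SOT17, a sulfotransferase of the aliphatic branch, was the only one called of 8 aliphatic glucosinolate genes tested (median 0.44, or 0.83 at the bounds), with 46.8, 28.9 and 18.6 TPM against 155, 52.4 and 103 TPM (log2 -1.72, SE 0.43, adjusted p = 0.00692; 0.106 without Col-0 replicate 1 and lost in 4 of 6 such fits).

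Jasmonate synthesis genes moved the other way. Of 16 tested, 7 were higher and 1 was lower in ein2-5, with a median of 0.84 beside 0.12 for all genes. Without single libraries 2 to 5 members were called higher, 2 without Col-0 replicate 2, Col-0 replicate 3 or ein2-5 replicate 2, 3 without ein2-5 replicate 1 and 4 without Col-0 replicate 1. LOX2, a chloroplast lipoxygenase of the first step, had 405, 534 and 312 TPM in ein2-5 and 106, 49.0 and 66.3 TPM in Col-0 (log2 2.49, SE 0.44, adjusted p = 6.29e-05). OPR3, the peroxisomal reductase of the pathway, had 374, 405 and 344 TPM against 161, 109 and 71.9 TPM (log2 1.72, SE 0.28, adjusted p = 9.54e-06). Both were apart in all libraries and kept their calls without any single library. LOX3, LOX6, the allene oxide synthase AOS and the cyclase AOC2 were also higher, by 1.13 (AOC2) to 2.00 (LOX6) in log2, with adjusted p between 0.00239 and 0.00937. All 4 lost their calls without some single libraries, LOX3 and AOS in 4 of 6 fits, LOX6 in 5 and AOC2 in all 6, with adjusted p up to 0.12 (AOC2 without Col-0 replicate 3). The 2 called enzymes of jasmonoyl-isoleucine turnover went apart. CYP94B3 rose, from 1.61, 0 and 0.808 TPM in Col-0 to 6.04, 17.64 and 8.95 TPM in ein2-5 (3 tags against 45, ratio 13.2 with a counting interval from 4.52 to 64.0, adjusted p = 0.00732; up to 0.0768 without ein2-5 replicate 2). CYP94C1 fell, from 86.0, 107 and 41.2 TPM to 6.79, 26.1 and 8.20 TPM (log2 -2.49, SE 0.49, adjusted p = 4.04e-04; 0.0115 without ein2-5 replicate 1).

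Genes on the MYC branch of jasmonate response, the wound response side, also moved up, with 5 of 15 higher, 1 lower and a median of 1.80. LOX2 is 1 of the 5 and was already counted above among the synthesis genes. The number higher was 1 without Col-0 replicate 2, namely LOX2, and 2 without Col-0 replicate 1, Col-0 replicate 3 or ein2-5 replicate 2. TAT3, a tyrosine aminotransferase induced by jasmonate, had 392, 634 and 236 TPM in ein2-5 and 71.6, 32.6 and 25.1 TPM in Col-0 (log2 3.28, SE 0.66, adjusted p = 4.91e-04). CORI3, the cystine lyase induced by coronatine, had 67.9, 95.9 and 65.6 TPM against 6.43, 12.9 and 21.0 TPM (log2 2.50, SE 0.57, adjusted p = 0.00254). NATA1, an acetyltransferase induced by jasmonate, had 55.9, 65.6 and 11.9 TPM against 3.22, 5.16 and 0 TPM (log2 3.97, SE 0.92, adjusted p = 0.00293), and the terpene synthase TPS04 had 16.6, 100.2 and 11.2 TPM against 3.22, 2.58 and 2.42 TPM (log2 3.92, SE 0.88, adjusted p = 0.0025). None of the 4 overlapped between the genotypes, but each lost its call in 2 to 5 of 6 fits without a single library, TPS04 with an adjusted p up to 0.201 without ein2-5 replicate 2. The vegetative storage protein VSP2 had 16.6, 107 and 10.4 TPM in ein2-5 and no tag in any Col-0 library (at least 54.0-fold higher), yet did not pass the test (adjusted p = 0.0201). VSP1 was similar, at 6.79, 132 and 7.45 TPM against no tag (at least 59.1-fold higher, adjusted p = 0.06). Replicate 2 of ein2-5 had the highest level of VSP1, VSP2, TPS04 and TAT3, and in water it was again the highest for VSP1 (381 TPM, against 9.10 and 7.02 TPM) and VSP2 (359 TPM, against 10.4 and 17.56 TPM). NAC3 (ANAC055), a NAC factor downstream of MYC2, fell, with 6.04, 7.76 and 11.9 TPM against 31.4, 36.9 and 26.7 TPM (log2 -1.87, SE 0.45, adjusted p = 0.005; up to 0.0467 without ein2-5 replicate 1). Among 11 tested JAZ genes, which encode repressors of MYC factors, JAZ12 alone was called, with 77.8, 67.0 and 138 TPM against 37.8, 57.6 and 38.0 TPM (log2 1.08, SE 0.25, adjusted p = 0.00308; up to 0.144 without ein2-5 replicate 3).

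Salicylic acid genes rose in ein2-5, with no called fall except that of PR1 when low counts were not filtered. In the synthesis and EDS1 list 4 of 14 tested were higher (median 1.09), and in the signaling and output list 5 of 14 (median 1.58). No synthesis gene was called without Col-0 replicate 2, Col-0 replicate 3, ein2-5 replicate 2 or ein2-5 replicate 3 and 1 without ein2-5 replicate 1, while 3 output genes were called without Col-0 replicate 2, Col-0 replicate 3, ein2-5 replicate 1 or ein2-5 replicate 2. EDS16 (ICS1), the isochorismate synthase that makes most salicylic acid in response to pathogens, had 320.1, 252 and 199.8 TPM in ein2-5 and 79.6, 25.8 and 30.7 TPM in Col-0 (log2 2.50, SE 0.63, adjusted p = 0.00668). PAD4, a lipase-like partner of EDS1, had 216, 128 and 122 TPM against 79.6, 31.8 and 46.9 TPM (log2 1.56, SE 0.41, adjusted p = 0.00982). ALD1, the aminotransferase of pipecolic acid synthesis, had 9.81, 22.6 and 24.6 TPM against 1.61, 1.72 and 1.62 TPM (log2 3.46, SE 0.80, adjusted p = 0.00315). The libraries of the genotypes were apart for all 3, with Col-0 replicate 1 the highest wild type library for EDS16 and PAD4. The fourth call, SARD1, a transcription factor for EDS16, was at 133, 85.4 and 79.0 TPM against 74.0, 12.03 and 20.2 TPM (log2 1.48, SE 0.38, adjusted p = 0.00879). Each of these 4 lost its call in 5 of 6 fits without a single library, with adjusted p up to 0.0715 (EDS16), 0.115 (PAD4) and 0.157 (SARD1), all without Col-0 replicate 2, and 0.028 (ALD1) without Col-0 replicate 3.

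WRKY factors made up 4 of the 5 calls among salicylic acid signaling and output genes. WRKY70 had 65.7, 66.3 and 56.7 TPM in ein2-5 and 12.9, 3.44 and 11.3 TPM in Col-0 (log2 2.75, SE 0.52, adjusted p = 2.11e-04). WRKY62 had 22.6, 47.97 and 22.4 TPM against 0.804, 0.859 and 3.23 TPM (log2 4.16, SE 0.59, adjusted p = 6.25e-07), and WRKY18 had 181, 262 and 170.0 TPM against 58.7, 66.2 and 80.0 TPM (log2 1.58, SE 0.28, adjusted p = 4.43e-05). All 3 were called without any single library. WRKY54, the closest relative of WRKY70, had 35.5, 31.7 and 17.1 TPM against 12.1, 3.44 and 4.04 TPM (log2 2.09, SE 0.54, adjusted p = 0.00982; 0.0921 without Col-0 replicate 2 and lost in 4 of 6 such fits). PR5, a thaumatin-like protein, had 40 tags in ein2-5 and 1 in Col-0, a ratio of 35.9 with a counting interval from 6.45 to 1420 (adjusted p = 0.00976, lost in each of the 6 fits, up to 0.064 without Col-0 replicate 3). PR1, the best known marker of the response, was at 5.28, 3.53 and 0.745 TPM in ein2-5 and 72.4, 0 and 3.23 TPM in Col-0, so that Col-0 replicate 1 set its mean, and it was not called (adjusted p = 0.126), with a difference of -2.96 that turned to 0.95 without that library. With no filter on low counts PR1 was called lower by edgeR (log2 -2.98, adjusted p = 1.50e-05). PCC1, a small defence protein under circadian control, was among the 12 largest rises, with 151, 309 and 145 TPM against 21.7, 3.44 and 2.42 TPM (log2 4.43, SE 0.72, adjusted p = 1.15e-05).

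**Figure D3:**
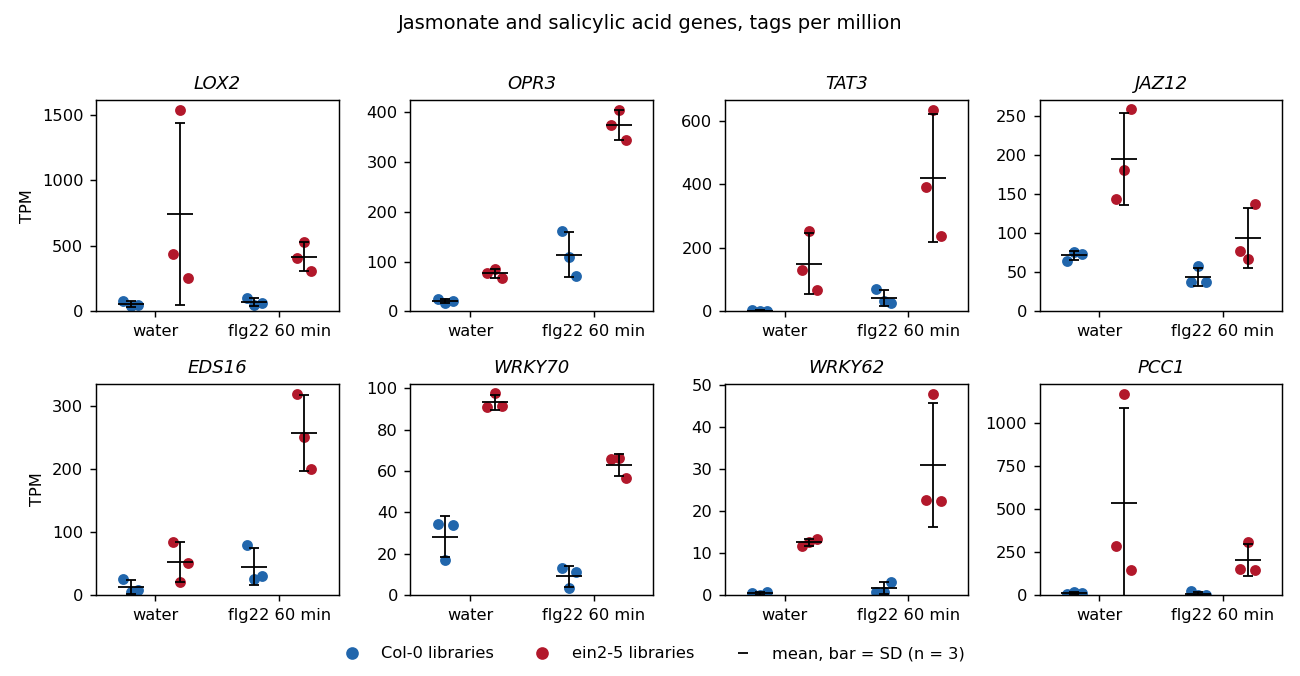
Levels of 4 jasmonate genes (LOX2, OPR3, TAT3, JAZ12) and 4 salicylic acid or defence genes (EDS16, WRKY70, WRKY62, PCC1) in TPM (vertical axes, linear from 0) in water and after 60 min of flg22, with each library as a point (Col-0 blue, ein2-5 red) and the mean and SD of 3 libraries in black. At 60 min all 3 ein2-5 libraries lie above all 3 Col-0 libraries for each gene.

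Few genes of flg22 perception and early response passed the test at 60 min. FLS2 had 96.6, 69.8 and 37.3 TPM in ein2-5 and 66.7, 59.3 and 64.7 TPM in Col-0 (log2 0.09, SE 0.41, adjusted p = 0.941), and its sign turned without some libraries (-0.24 without ein2-5 replicate 1). FRK1, a receptor-like kinase used as a marker of the flg22 response, had 1174, 1383 and 992 TPM against 1249.7, 1182 and 1052 TPM (log2 0.03, SE 0.49, adjusted p = 0.989). The SE leaves room for moderate differences in either direction. Of 21 members of the FLS2 complex and immune signaling list, all tested, EFR alone was called. This receptor of the bacterial elongation factor EF-Tu had 44.5, 42.3 and 56.7 TPM against 21.7, 15.5 and 17.0 TPM (log2 1.399, SE 0.31, adjusted p = 0.00156; up to 0.0253 without Col-0 replicate 2, and lost in 3 of 6 such fits). Of 15 marker genes of pattern-triggered immunity, SARD1 was higher and MYB51 lower, both described above. The median of the 15 was -0.46, beside 0.12 for all genes. Their summed level was 7848, 8136 and 7922 TPM in ein2-5 and 11671, 12738 and 12202 TPM in Col-0, lower in every mutant library. Such a sum is weighted to the most abundant members and does not describe each gene. The genotypes did not overlap for 6 lower and 3 higher members, beside 23.5% of all genes tested.

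After 8 min in water without flg22, the same genotypes differed at more genes, 1071 of 14569 (7.35%). Of these, 842 were higher (5.78%) and 229 lower (1.57%) in ein2-5. This comparison shares no library with that at 60 min, but it shares the lanes. Ethylene output genes were lower there too, 10 of 16 with a median of -2.61, and so were 6 of 8 genes of the defensin branch. PDF1.4 was the 1 member of that branch called higher in water, with 2157, 1221 and 2674 TPM in ein2-5 and 463, 330.3 and 537 TPM in Col-0 (log2 2.19, SE 0.37, adjusted p = 9.65e-06). Immune genes stood higher there. Of the FLS2 complex list 12 of 21 were higher in ein2-5 in water (median 1.24), and of the marker genes 7 of 15 (median 1.44), against 1 in either list at 60 min. JAZ genes (7 of 11), jasmonate synthesis genes (9 of 16) and MYC branch genes (10 of 15) were also higher in water. Of the 270 genes higher at 60 min, 154 (57.0%) were also higher in water, which is 18.3% of those higher in water, and of the 163 lower at 60 min, 57 (35.0%) were also lower in water, 24.9% of those lower in water.

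Whether the difference between the genotypes itself changed from water to 60 min was tested as an interaction, with 60 min of flg22 set against 8 min of water. It was called for 176 genes (1.21%), of which 162 (1.11%) had a difference that was lower at 60 min than in water and 14 (0.0961%) one that was higher. No call was made when the 12 libraries of the 4 groups were fitted alone (0 calls by edgeR, 1535 at an unadjusted p under 0.05), and scaling by total tags gave 71. Of the 162, 144 were called higher in ein2-5 in water and 151 were not called at 60 min, and their median log2 difference was 2.22 in water and -0.30 at 60 min. As the interaction is made from these same differences, the counts describe it and are no further evidence. WRKY30 shows the form. It had 18.9, 6.31 and 28.7 TPM in ein2-5 in water against 1.09, 0 and 0.753 TPM in Col-0, and 426, 321 and 535 TPM against 578, 621 and 561 TPM at 60 min (interaction log2 -5.11, SE 0.91, adjusted p = 2.47e-04). The WRKY30 level of Col-0 in water rests on few tags, so the size of this change is uncertain. The ubiquitin ligase PUB23, which dampens immune signaling, had 225, 103 and 283 TPM against 49.4, 29.0 and 47.5 TPM in water, and 655, 849 and 696 TPM against 714, 771 and 700.0 TPM at 60 min (interaction log2 -2.27, SE 0.38, adjusted p = 8.03e-05). Both genes were higher in the mutant in water and overlapped or were close between the genotypes at 60 min.

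WRKY40, a factor induced early by flg22, and LOX4, a lipoxygenase of jasmonate synthesis, had the same form. Both, with JAZ1, WRKY30 and PUB23, kept their interaction calls without any single library at 60 min. No water library was left out singly. Without replicate 1 in all groups none of these genes was called (adjusted p from 0.0136 for PUB23 to 0.0509 for WRKY40). WRKY40 had a mean of 47.6 TPM in ein2-5 and 11.2 TPM in Col-0 in water, and 416 and 538 TPM at 60 min (interaction log2 -2.46, SE 0.48, adjusted p = 9.22e-04). LOX4 had means of 37.2 and 4.24 TPM in water and 495 and 557 TPM at 60 min (interaction log2 -3.33, SE 0.55, adjusted p = 6.68e-05). JAZ1 was higher in ein2-5 in water (means of 144 and 55.1 TPM), and at 60 min all 3 mutant libraries were below Col-0 (means of 496 and 904 TPM), a difference that was not called there (log2 -0.87, adjusted p = 0.0370; interaction log2 -2.25, SE 0.39, adjusted p = 1.56e-04). IGMT1 was called in opposite directions. It was higher in ein2-5 in water, with 65.0, 19.6 and 115 TPM against 24.4, 12.2 and 12.8 TPM, and lower at 60 min (interaction log2 -3.86, SE 0.61, adjusted p = 3.97e-05). MYB51 rose less with flg22 in the mutant, from 57.9, 16.1 and 49.2 TPM in water against 51.6, 35.4 and 42.2 TPM in Col-0 to the levels given above (interaction log2 -2.11, SE 0.43, adjusted p = 0.00138; 0.0164 without ein2-5 replicate 3).

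**Figure D4:**
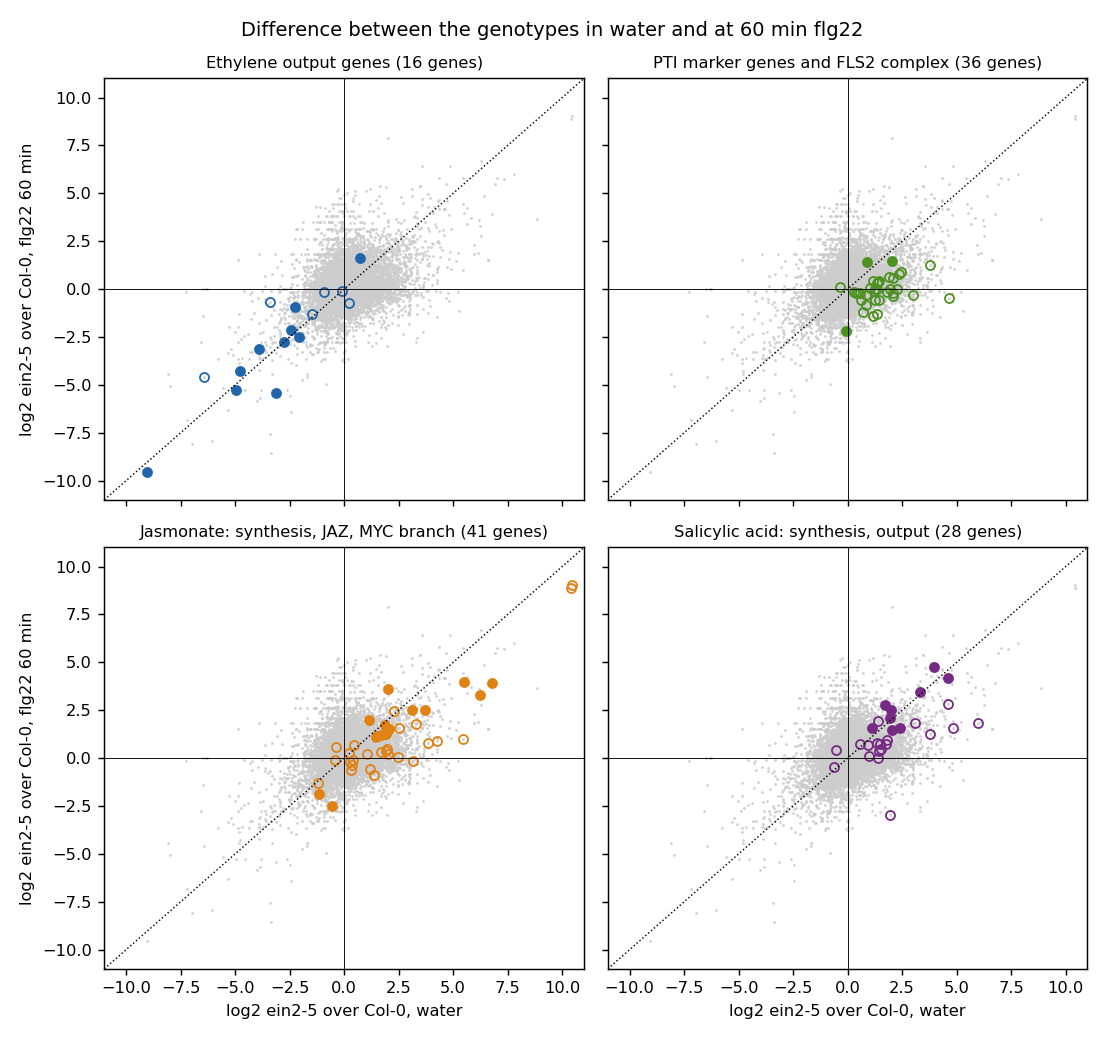
Log2 difference of ein2-5 over Col-0 in water (horizontal axes) and at 60 min flg22 (vertical axes) for all sense genes tested (grey) and the members of 4 sets of lists (coloured, filled where called at 60 min), with equality as a dotted line. Ethylene output genes lie along the line below 0 in both (medians -2.61 and -2.32). The FLS2 complex and marker genes had medians of 1.24 and 1.44 in water and of 0.01 and -0.46 at 60 min.

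The response to flg22 was read from npr1-1 and jar1-1, whose libraries are in neither arm of the comparison. There, 3199 sense genes (22.0%) were higher and 5119 (35.1%) lower at 60 min than in water. Of the 163 genes lower in ein2-5, 94 (57.7%) were among the flg22-induced genes, which is 2.94% of that class beside the 1.12% of all genes called lower. Of the 270 higher in ein2-5, 60 (22.2%) were among them, 1.88% of the class beside 1.85%. Genes lowered by flg22 held 98 of the higher and 30 of the lower calls, 1.91% and 0.586% of the class. In water 599 of the induced genes (18.7%, beside 5.78% of all genes) were higher in ein2-5. Of the 162 genes whose difference fell from water to 60 min, 161 were induced in npr1-1 and jar1-1. An interaction of this sign favours genes that rise with flg22 in Col-0. At 60 min npr1-1 and jar1-1 had only 4 and 6 calls against Col-0. The count of 161 therefore describes these calls and is no further evidence.

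The largest changes at 60 min also included genes outside the hormone lists. Falls to no tag in ein2-5 were found for CYP71B22, a cytochrome P450, with 16.1, 32.6 and 27.5 TPM in Col-0 (at least 34.6-fold lower, adjusted p = 5.26e-07), and for the cupin gene AT5G38940, with 13.7, 15.5 and 38.8 TPM (at least 30.8-fold lower, adjusted p = 6.67e-06). AACT1 (AT5G61160), annotated as an aromatic acyltransferase, had 3.77, 4.23 and 5.22 TPM in ein2-5 and 146, 227 and 113 TPM in Col-0 (log2 -5.17, SE 0.63, adjusted p = 1.44e-08). CCD8, a carotenoid cleavage enzyme of strigolactone synthesis, had 1 tag against 47 (0, 0.705 and 0 TPM against 6.43, 0.859 and 30.7 TPM), a ratio of 51.7 with a counting interval from 9.28 to 2042 (adjusted p = 0.00797; 0.274 without Col-0 replicate 3, which held most of its tags, and lost in 4 of 6 such fits). The first 3 kept their calls without any single library.

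Among the largest rises, the thionin gene AT1G66100, which encodes a small antimicrobial peptide, had 145, 129 and 189 TPM in ein2-5 and 1.61, 7.73 and 0.808 TPM in Col-0 (log2 5.50, SE 0.70, adjusted p = 4.25e-08). In water it was higher still, at 612, 579 and 575 TPM against 24.97, 31.6 and 12.8 TPM. AT1G21520, of unknown function, had 47.6, 28.9 and 114 TPM against 4.82, 1.72 and 1.62 TPM (log2 4.49, SE 0.55, adjusted p = 8.83e-09). AT5G62130, a Per1-like protein, had 49.8, 9.88 and 6.71 TPM in ein2-5 and no tag in Col-0 (at least 26.9-fold higher, adjusted p = 7.00e-06), although Col-0 in water had 9.23, 12.2 and 6.03 TPM. RWP1, an acyltransferase, had 67 tags against 2, a ratio of 30.1 with a counting interval from 8.34 to 249 (adjusted p = 1.09e-04), and NAC096, a NAC factor, had 42 tags against 1, a ratio of 37.6 with an interval from 6.76 to 1487 (adjusted p = 4.04e-04). MSRB6, a methionine sulfoxide reductase, was at 10.6, 11.3 and 12.7 TPM against 0, 0.859 and 0 TPM (adjusted p = 4.79e-04, and 0.0104 without Col-0 replicate 3). The other 5 of the 12 largest rises were AT5G50450 (45 tags against 1), AT3G15536 (a non-coding RNA, 43 tags against 1), AT5G24200 (83 tags against 3), MBP1 (a myrosinase-binding protein) and AT3G28220 (a TRAF-like protein). AT3G28220 and MBP1 were highest in ein2-5 replicate 2, at 334 and 69.8 TPM, and their adjusted p rose to 0.158 and 0.11 without that library.

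Single members moved in 3 further lists. NAP, a NAC factor that promotes leaf senescence, had 2.26, 5.64 and 2.98 TPM in ein2-5 and 45.0, 34.4 and 55.8 TPM in Col-0 (log2 -3.59, SE 0.52, adjusted p = 7.33e-07). NAC6 (ANAC092, ORE1), a senescence regulator downstream of EIN2, had 8.30, 0.705 and 9.69 TPM against 31.4, 22.3 and 34.8 TPM (log2 -2.24, SE 0.51, adjusted p = 0.00265; up to 0.0453 without ein2-5 replicate 2). These were the 2 calls among 11 senescence genes tested. KIN2, a cold and abscisic acid induced protein, had 278, 353 and 233 TPM against 62.7, 60.1 and 34.0 TPM (log2 2.46, SE 0.38, adjusted p = 3.47e-06), the only call of 11 dehydration genes (median 1.48). HB1, a hemoglobin induced by low oxygen, had 1 tag against 19 (ratio 21.0, counting interval from 3.78 to 831, adjusted p = 0.00973; 0.0724 without Col-0 replicate 1, and lost in 5 of 6 such fits). No member was called among 19 nuclear photosynthesis genes (median 1.305, and 0.28 without ein2-5 replicate 1), although 9 were called higher with no filter on low counts, 2 with the replicate block and 1 by limma-voom. None was called among 8 clock genes (median 0.83), 7 heat shock genes and 3 flavonoid genes tested.

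At the other flg22 times, in libraries that share lanes but not samples with those at 60 min, the genotypes differed at 427 genes after 8 min (2.93%), 364 after 15 min (2.5%) and 321 after 30 min (2.2%). Later on there were 319 calls at 45 min (2.19%), 480 at 120 min (3.29%) and 484 after 180 min (3.32%). At 45 min 201 genes were higher (1.38%) and 118 lower (0.81%). Of these, 126 and 82 were called in the same direction at 60 min, which is 46.7% of the 270 and 50.3% of the 163 genes, or 62.7% and 69.5% of the calls at 45 min. At 180 min 229 were higher (1.57%) and 255 lower (1.75%), and 79 and 87 of them were shared with 60 min, 29.3% and 53.4% of the calls at 60 min. EBP, ARL and PR4 were called lower at all 7 flg22 times, and EBF2 at all but 30 min, when its difference was -1.03. LOX2 and AT1G66100 were called higher at all 7. OPR3 was higher by 1.72 to 2.51 in log2 from 8 to 60 min and by -0.15 and 0.12 at 120 and 180 min. MYB51 and ERF-1 were called lower from 45 min on, and the MYB51 difference ran from -1.88 at 45 min to -2.91 at 180 min.

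**Figure D5:**
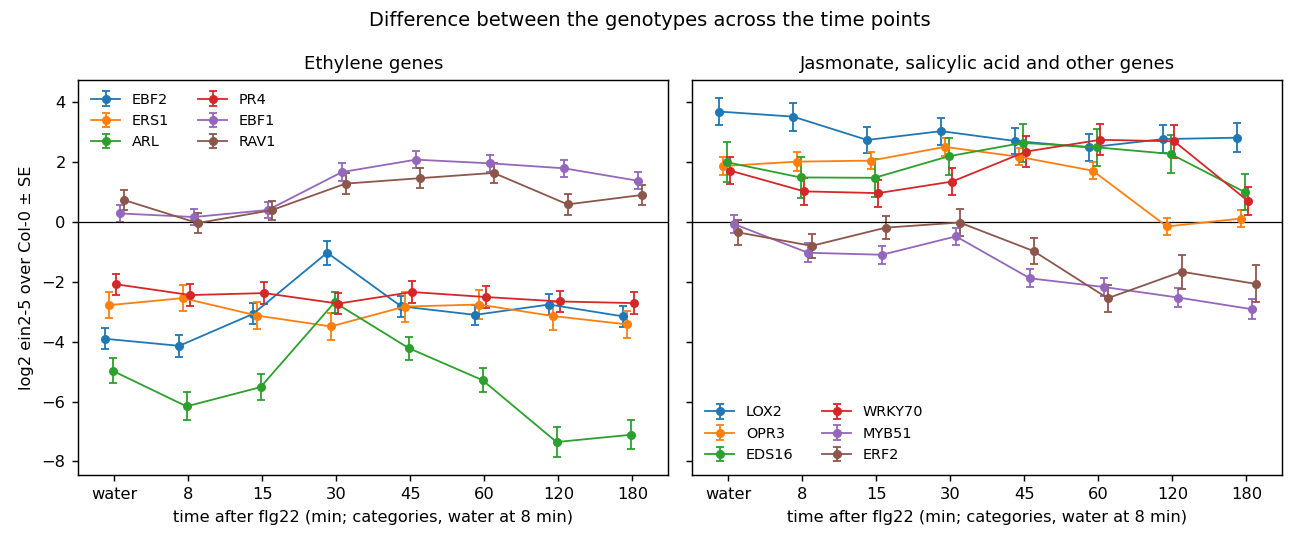
Log2 difference of ein2-5 over Col-0 (vertical axis, with SE from the edgeR fit as bars) in water and at 7 times after flg22 (horizontal axis, as categories in min) for 12 genes. EBF2, ERS1, ARL and PR4 stay below 0, and OPR3 goes from 1.72 at 60 min to -0.15 at 120 min.

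The other mutants are given beside ein2-5 with the reminder that they are compared with the same 3 Col-0 libraries. Against Col-0 at 60 min, 4 sense genes (0.0275%) passed the test in npr1-1 and 6 (0.0412%) in jar1-1. EBF2 had a mean of 145 TPM in npr1-1 and 155 TPM in jar1-1, beside 17.7 TPM in ein2-5 and 153 TPM in Col-0. LOX2 had means of 60.8 and 40.6 TPM beside 417 and 73.8 TPM, and MYB51 had 348 and 539 TPM beside 84.7 and 382 TPM. By these means ein2-5 stood apart from the other genotypes. PR4 was low in jar1-1 as well, with a mean of 61.6 TPM beside 47.2 TPM in ein2-5, 233 TPM in npr1-1 and 268 TPM in Col-0 (jar1-1 against Col-0, log2 -2.12, adjusted p = 3.96e-04). Set against the mean of npr1-1 and jar1-1, a comparison without any Col-0 library, ein2-5 differed at 595 genes (4.08%). There EBF2 was lower by -3.08 (SE 0.32) and LOX2 higher by 3.07 (SE 0.35), whereas EDS16 (1.74, adjusted p = 0.0157) and ERF5 (-1.09, adjusted p = 0.0382) did not pass the test.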

How the data were processed

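EXPRSS Tag-seq libraries of Arabidopsis leaf discs were compared, 3 of ein2-5 and 3 of Col-0 after 60 min in 100 nM flg22, within 96 libraries (32 groups of 3, 12 lanes of 8, 388494 to 2415097 tags each). The deposited values are expected counts per locus, without normalisation. The authors filtered tags on quality, sorted them by barcode, aligned them to TAIR10 with Bowtie 0.12.8 and split tags matching several genes evenly between these, so near-identical copies share tags. Antisense counts were kept apart. R 2.15.3 is also named in the submitters' processing notes.

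Groups came from the sample titles. Counts were rounded to whole tags, since shared tags leave fractions, and a locus without an entry was read as 0. Sense and antisense features were tested together with edgeR 4.0.16 (R 4.3.3, limma 3.58.1) by the quasi-likelihood test, two-sided, on 1 model with a term per group and all 96 libraries. filterByExpr by group (a minimum count of 10, at least 15 in total, groups over 10 as large, proportion 0.7) kept 14569 sense and 2247 antisense of 27878 and 24617 loci. TMM factors ran from 0.682 to 1.36. P-values were adjusted by Benjamini-Hochberg over all 16816 features, and called means an adjusted p under 0.01. SE is the log2 difference divided by the root of the F statistic. The script was tested on simulated data. Water and the other flg22 times were contrasts of the same model, and the interaction was the difference at 60 min minus that in water.

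A gene without tags in a group is given a bound from 3 tags over that group, and a group with 1 to 3 tags a ratio with an exact 95% interval, both for counting error only. Genes named are EIN2, the 12 largest rises and falls among called genes with at least 10 TPM in the higher group and groups apart, the 4 largest interaction changes each way, and members of 26 lists called at 60 min or in the interaction (340 genes in all). PDF1.4, VSP1, VSP2, PR1, FLS2 and FRK1 are list members that were called neither at 60 min nor in the interaction and were named after their values were seen. A called gene is not reported here. The members and lists were chosen with earlier results of these data known. Names matched 27432 sense loci in the TAIR10.1 annotation, which also gave the promoter windows, while the files use TAIR10. P-values measure the spread between biological replicates within groups, estimated for each gene over all 32 groups of 3 without a term for lane. In each genotype a replicate is also a lane, so libraries of the same lane were treated as independent. Their correlation within a lane was 0.19 in the limma-voom fit.

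Alternatives were scaling by total tags, no organelle loci, DESeq2 1.42.0, no filter, fits with fewer libraries, limma-voom with a lane block, a replicate block, thinning to 1265554 tags, an adjusted p under 0.05 and leaving out replicates.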

Additional observations from a re-analysis of the deposited data

Results flagged for a closer look

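The difference between ein2-5 and Col-0 was not the same at 60 min of flg22 as after 8 min in water for 176 sense genes, by the interaction test of the edgeR fit. The named genes among them are given with the change of the log2 difference from water to 60 min. WRKY transcription factors of early defence had a difference that was lower at 60 min than in water, while their levels could still rise. WRKY30 was at -5.11, WRKY40 at -2.46, WRKY33 at -1.97 and WRKY22 at -1.95. The same held for the kinase MPK11 (-3.32), the ubiquitin ligases PUB23 (-2.27) and PUB24 (-2.33), and CBP60G (-2.55), all regulators of immune signaling. CBP60G is a transcription factor of salicylic acid synthesis. Of the jasmonate genes, LOX4 (-3.33), the repressors JAZ1 (-2.25), JAZ5 (-4.46) and JAZ10 (-3.37) and MYC2 (-2.39) were in this group. ACS6, an ACC synthase activated by MAP kinases, was at -2.07, and the factors ERF5 and ERF6 were at -2.45 and -3.03. Of the indole glucosinolate genes, MYB51 was at -2.11, IGMT1 at -3.86 and IGMT2 at -3.53. Without a gene list, AT2G31345 (-6.41), AT1G17147 (a VQ motif protein, -5.01) and AT1G05675 (a glycosyltransferase, -4.81) had the lowest values beside WRKY30.

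The opposite sign was rarer. AT5G50450 (4.43), AT3G62550 (3.72), AT4G21870 (3.59) and RAP2.6 (3.46), an ERF factor, led it, with EBF1 at 1.68 and RAP2.2 at 1.33. RAP2.6 had a mean of 1.33 TPM in ein2-5 and 21.3 TPM in Col-0 in water, and 15.3 and 21.5 TPM at 60 min. Of these 28 named interaction calls 11 held without any single library at 60 min, and 17 were lost without at least 1, among them EBF1 (adjusted p = 0.0311 without ein2-5 replicate 1) and MYC2 (0.0412 without Col-0 replicate 1).

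Antisense transcripts, which the comparison of sense genes does not use, also differed at 60 min. Of 2247 tested, 24 were called, 23 lower and 1 higher in ein2-5, a smaller share than the 2.97% of sense genes called. Antisense tags of ARL (25 tags) and ORS1 (21 tags) were seen in Col-0, as 3.22, 9.45 and 8.08 TPM and as 8.85, 4.30 and 4.04 TPM, and not in ein2-5. In npr1-1 and jar1-1 their means at 60 min were 3.41 and 4.11 TPM for ARL and 6.44 and 6.91 TPM for ORS1. The sense transcripts of ARL and ORS1 were lower in ein2-5 as well, and whether the antisense tags follow them was not tested. Antisense tags of AZI1, a lipid transfer protein of systemic resistance, were at 20.4, 9.88 and 11.9 TPM in ein2-5 and 125, 107 and 135 TPM in Col-0. The single higher transcript was antisense to the kinase gene AT1G66460, at 189, 216 and 160 TPM against 26.5, 40.4 and 30.7 TPM. The share of all tags that were antisense overlapped, at 2.79%, 4.08% and 1.99% in ein2-5 and 4.22%, 3.20% and 3.60% in Col-0.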

How the results depend on the processing

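The 433 calls at 60 min became 380 with scaling by total tags, 374 after thinning to the smallest total, 410 with Col-0 and ein2-5 libraries alone, 438 without organelle loci, 486 with DESeq2 and 600 with no filter. They became 199 with only the 6 libraries compared in the fit, 608 with limma-voom, and 888 at an adjusted p under 0.05. Leaving out a replicate number or a single library gave 120 to 323. With the replicate number as a block there were 611 calls, and all 433 were among them. The 176 interaction calls became 71 with scaling by total tags (which moved the median of all genes to 0.34), 117 with Col-0 and ein2-5 libraries alone, 0 with only the 12 libraries compared, and 337 with both DESeq2 and limma-voom. Leaving out replicates gave 21 to 159, a replicate block 256, and a replicate block within genotype 393. Same-numbered libraries of the 2 genotypes correlated at 0.348, -0.072 and -0.196 after removal of group means, so the numbers were not taken as pairs. EIN2 had differences of -0.13 to -0.99 over the alternatives and -0.74 with the replicate block, none past the test. FLS2 turned to -0.24 without replicate 1, -0.023 without replicate 2 and -0.24 without ein2-5 replicate 1, with a range of -0.24 to 0.43 without replicates. FRK1 turned to -0.017 without organelle loci, -0.00226 after thinning, -0.13 without replicate 2, -0.076 without Col-0 replicate 3 and -0.16 without ein2-5 replicate 2 (range -0.16 to 0.14). PR1 turned to 0.34 without replicate 1 and 0.95 without Col-0 replicate 1 (range -3.66 to 0.95). The causes were not tested. Of 71 named calls at 60 min, 36 held without any single library. With 3 libraries a group and 1265554 to 1781878 tags each, genes under about 10 TPM rest on few tags, and a missed threshold does not show equal levels.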
